A study of Mus musculus with 6 samples.

Results

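The laminin chain genes Lama2, Lama4, Lama5, Lamb1, Lamb2 and Lamc1, and the linker genes Nid1, Nid2, Hspg2 and Agrn, were followed across 6 libraries of mouse muscle stem cell RNA. The 10 genes were chosen by name, from their place in the basement membrane. Rows were found for 9 of the 10 in a table of 14515 genes, and Lama4 was not analysed here. There were 2 libraries each labelled mdx/Ripk3mKO, mdx and wt. Mice of the mdx strain lack dystrophin because of a mutation in its gene, Dmd, and serve as a model for Duchenne muscular dystrophy. The mdx/Ripk3mKO group carries that background together with a change of Ripk3, a kinase required for necroptotic cell death, which the labels write as mKO without spelling it out. The sources used here do not give the promoter that drives it, the ages of the animals or the sorting gate. Each library was made from 10000 to 20000 sorted cells.

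The sources give 2 accounts of the cells. The sample labels call them quiescent satellite cells, the resting stem cells under the basement membrane of the muscle fibre. The series text speaks of activated wild-type cells collected 72 hours after conditioning, grown beneath a transwell in which cells of the 3 genotypes were kept. Under that account the label names the genotype of the cells above and all sequenced cells are wild type. The quiescent label did not match the marker genes: per kilobase of transcript, Myog, a transcription factor of differentiating muscle cells, averaged 21604 scaled counts, against 321 for the satellite cell factor Pax7. Groups are therefore named by their labels only.

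Laminins are secreted trimers of an alpha, a beta and a gamma chain that polymerise on the cell surface into the first sheet of a basement membrane. Nidogens and the heparan sulphate proteoglycan perlecan, encoded by Hspg2, tie that sheet to type IV collagen, and agrin ties it to dystroglycan, the receptor that dystrophin anchors inside the muscle fibre. The trimer with the Lama2 chain is the main laminin of the muscle fibre, and loss of LAMA2 in humans causes a congenital muscular dystrophy. Satellite cells lie between this sheet and the fibre.

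The sequences before the starts of the most abundant and steadiest of these genes, Hspg2, and of the most variable, Lama2, are shown for reference. Each covers the 250 bases upstream of the RefSeq start (GRCm38.p6), 5′ to 3′ on the gene's strand, with the GC box, GGGCGG on either strand, in capitals. The Hspg2 window, chr4:137468553-137468802 on the plus strand, and the Lama2 window, chr10:27616943-27617192 on the minus strand, read as follows.
Hspg2: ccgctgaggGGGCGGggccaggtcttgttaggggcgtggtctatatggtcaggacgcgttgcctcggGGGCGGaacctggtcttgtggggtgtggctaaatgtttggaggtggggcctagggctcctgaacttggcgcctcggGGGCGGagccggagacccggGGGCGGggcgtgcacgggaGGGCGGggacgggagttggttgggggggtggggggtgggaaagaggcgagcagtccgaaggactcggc
Lama2: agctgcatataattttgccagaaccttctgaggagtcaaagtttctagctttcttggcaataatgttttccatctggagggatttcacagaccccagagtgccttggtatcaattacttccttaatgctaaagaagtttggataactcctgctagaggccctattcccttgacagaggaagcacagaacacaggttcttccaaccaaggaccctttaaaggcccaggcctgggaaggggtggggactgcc
The Hspg2 window had a GC content of 70.0% and held 5 GC boxes, a number reached by 1.93% of 32851 windows of the same length. The Lama2 window had a GC content of 47.2% and held none, against a median GC content of 52.4% over all windows. Of 5 motifs searched on both strands, the GC box occurred in 32.7% of all windows, the E-box CAGCTG in 13.0%, the AP-1 motif TGANTCA in 6.75%, the SMAD box CAGACA in 17.1% and the TATA box TATAAA in 12.4%. None of the 5 was found in the Lama2 window. Windows were at hand for 7 of the 9 genes, and 5 of these had at least 1 GC box: Hspg2, Lama5, Lamb1, Nid1 and Agrn. Lamb2, the second steadiest, had 0 in a window of 43.6% GC, and Lama5, the second most variable, had 4. Agrn, the lowest, had 2 and 12 in its 2 windows, while Lamb1 had 2 and Nid1 had 1. A relation of the GC box to level or steadiness was not tested. A match describes letters only, and windows of neighbouring starts may overlap.

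Values are scaled counts, which are read counts per gene after scaling between libraries. Their totals ran from 20611974 to 21037153 per library, and the scaling divisors estimated from the values were 1.205 and 1.206 for mdx/Ripk3mKO, 0.922 and 0.954 for mdx and 0.910 and 0.870 for wt, so the mdx/Ripk3mKO libraries were the deepest. Ripk3 itself had 17 and 33 scaled counts in mdx/Ripk3mKO, 23 and 36 in mdx and 45 and 32 in wt. Its adjusted p was 0.824 against mdx and 1 against wt, so it gave no check of the labels. Dmd had 474 and 294 scaled counts in mdx/Ripk3mKO, 531 and 692 in mdx and 324 and 432 in wt. One library stood apart: for Xist, the RNA of the silenced X chromosome, mdx/Ripk3mKO library 1 had 6918 scaled counts against 164 to 666 in the other 5 libraries, and 286 of Col1a1 against 21 to 96. Markers of other cell types were low for endothelium (5 of 8 listed genes in the table, 73 to 105 summed scaled counts), macrophages (3 of 8, 45 to 62) and Schwann cells (3 of 7, 188 to 232). Pecam1, which defines endothelium, had 8 to 16 and Pdgfra, of fibroblast progenitors, 24 to 32. Pericyte and smooth muscle markers (6 of 8) summed to 52798 and 48888 in mdx/Ripk3mKO, 56139 and 40398 in mdx and 53699 and 43195 in wt, mostly from Acta2, which differentiating muscle cells also express. Of these 6, Cspg4 passed the adjusted threshold of 0.05, with a log2 fold change of mdx/Ripk3mKO over mdx of 0.44 ± 0.07 (limma adjusted p = 0.029), and lost it without mdx library 2 (0.226), mdx/Ripk3mKO library 2 (0.081) or either wt library (0.143 each). Pdgfrb had -0.57 ± 0.12 (limma adjusted p = 0.084). The sources do not tie the 2 libraries of a group to separate animals or cultures, and p-values then reflect a spread between libraries that may be technical.

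All 9 genes were detected in every library, and Hspg2 exceeded the rest. On scaled counts per kilobase of the longest transcript, Hspg2 averaged 1230 over the 6 libraries. Lamc1, the gamma chain of most laminins, averaged 609 and Lamb1, the commonest beta chain, 586. The nidogens followed, with 395 for Nid2 and 352 for Nid1. Next came Lama2 at 279, Lamb2, a beta chain of the neuromuscular junction, at 257, and Lama5, the alpha chain of many embryonic and vascular basement membranes, at 174. Agrn, which organises acetylcholine receptors at the junction when made by nerve, was lowest at 76.1. Between neighbours in this order, every library of the first lay above every library of the second for Hspg2 over Lamc1, Lamb1 over Nid2, Lamb2 over Lama5 and Lama5 over Agrn. The other 4 neighbouring pairs overlapped. The order depends on the transcript length used: with the union of all exons, Nid2 at 372 stood above Lamb1 at 342, and Lama2 at 164 fell behind Lama5 at 174.

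**Figure D1:**
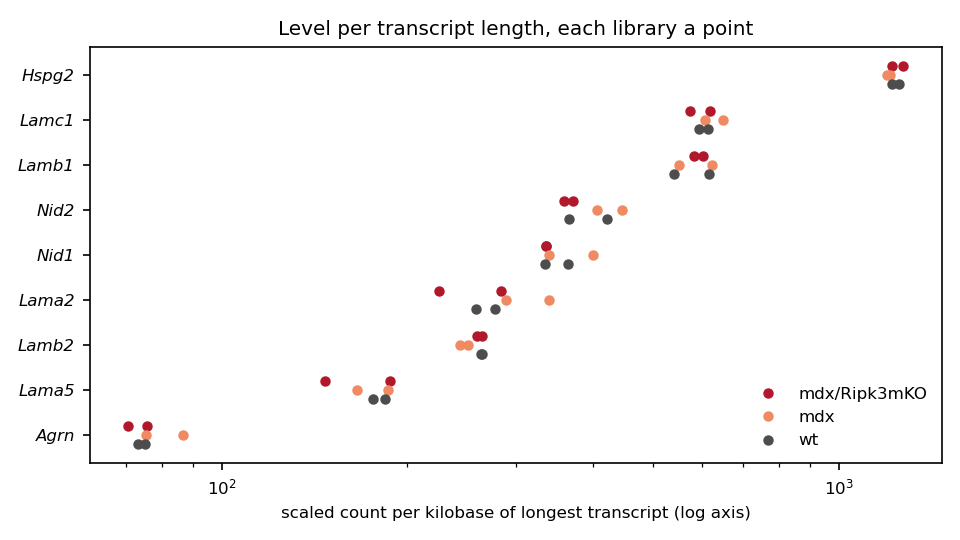
Scaled counts per kilobase of the longest transcript on a log axis, with 1 point for each library in its group's colour. Hspg2 stands between 1197 and 1273 in all 6 libraries and Agrn between 70.6 and 86.7, while Lamc1 and Lamb1 overlap.

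Set against Lamc1, which all these trimers would share, the chains lay in narrow ranges of proportion. The sum of Lama2 and Lama5 per kilobase was 0.695 and 0.719 times Lamc1 in mdx/Ripk3mKO, 0.749 and 0.809 times in mdx and 0.732 and 0.752 times in wt. The sum of Lamb1 and Lamb2 was 1.366 and 1.502 times Lamc1 in mdx/Ripk3mKO, 1.32 and 1.34 times in mdx and 1.35 and 1.44 times in wt. For the 2 nidogens together the ratio was 1.14 and 1.21 in mdx/Ripk3mKO, 1.30 and 1.24 in mdx and 1.27 and 1.19 in wt. Of the 3 ratios, those of the alpha chains and the nidogens were lower, and that of the beta chains higher, in both mdx/Ripk3mKO libraries than in both mdx libraries. The alpha chain ratio of mdx/Ripk3mKO was also below both wt values. Both differences of the alpha chain ratio needed the longest transcript as length. With the union of all exons, that ratio in mdx/Ripk3mKO library 2 lay above mdx library 1 and wt library 1. All 3 ratios have Lamc1 as divisor, so they are not separate observations. Of single genes, 41.3% showed no overlap between mdx/Ripk3mKO and mdx.

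The share of Lama2 in Lama2 plus Lama5 per kilobase was 65.8% and 54.6% in mdx/Ripk3mKO, 63.6% and 64.6% in mdx and 59.5% and 60.1% in wt. The 2 mdx/Ripk3mKO libraries thus held the highest and the lowest share, while mdx lay above wt without overlap. The mean share was 4.26 percentage points higher in mdx than in wt (2-sided exact permutation test, p = 0.333, the smallest that 2 against 2 libraries can give). Lamb1 made up 68.8% and 69.9% of the beta chains in mdx/Ripk3mKO, 68.7% and 71.9% in mdx and 67.3% and 70.0% in wt. Nid1 made up 47.5% and 48.3% of the nidogens in mdx/Ripk3mKO, 43.2% and 49.7% in mdx and 44.3% and 49.9% in wt. Neither of these shares separated any pair of groups.

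Library to library, the genes differed in how steady they were. The coefficient of variation over all 6 libraries was 13.4% for Lama2, 8.99% for Lama5, 8.93% for Nid2, 7.52% for Nid1, 7.28% for Agrn, 5.92% for Lamb1, 4.15% for Lamc1, 3.36% for Lamb2 and 2.29% for Hspg2. Its median was 4.39% over the 5724 genes whose mean was at least that of Agrn. Lama2 thus varied most and Hspg2, Lamb2 and Lamc1 stood under that median. The set behind the median was not matched to the level of each gene, and the coefficient takes in differences between groups as well. The mdx library 2 was the highest of the 6 for 5 genes, Lama2, Lamb1, Lamc1, Nid1 and Agrn, and the lowest for Lamb2 and Hspg2.

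**Figure D2:**
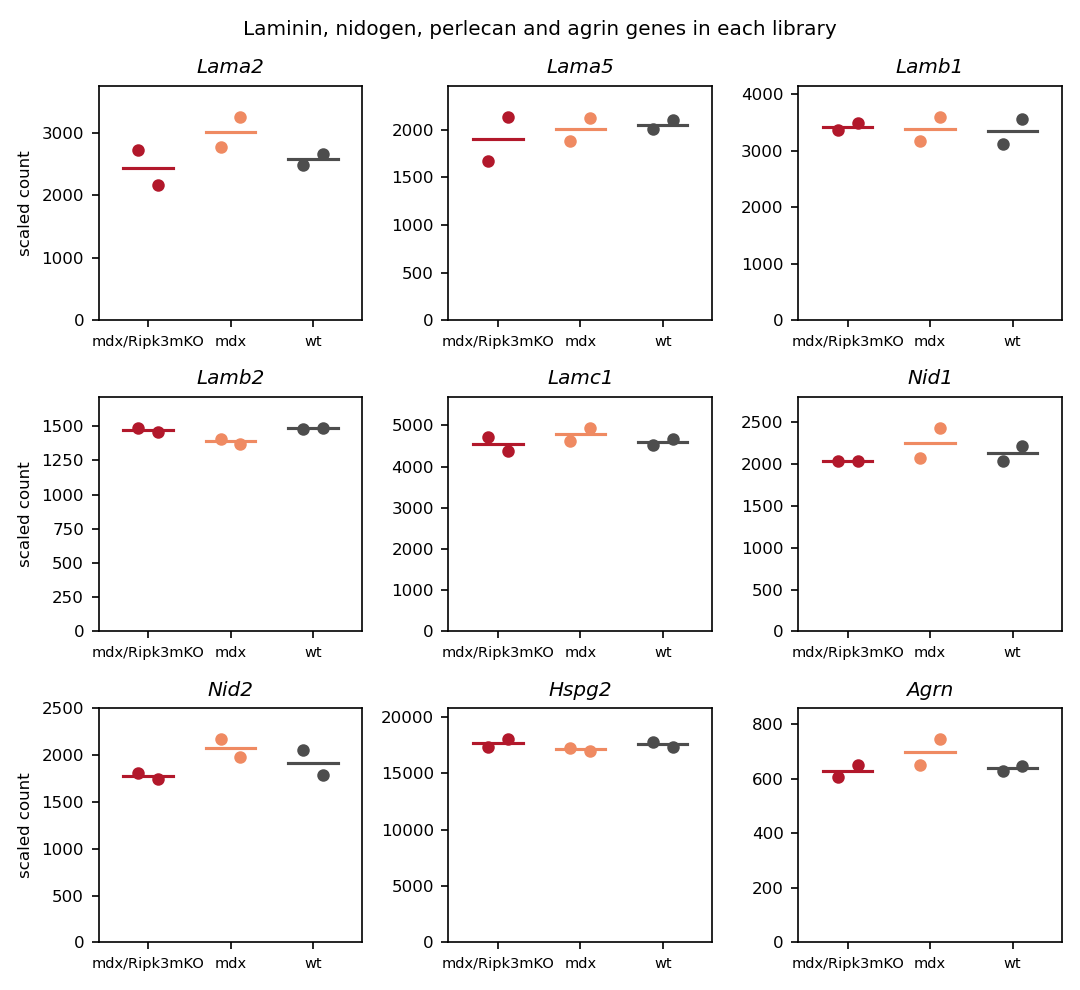
Scaled counts of the 9 genes in each library (points) with the mean of the 2 libraries of each group (line), on axes that start at 0. The groups lie close together throughout, with the widest spread in Lama2 and Lama5.

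By its labels, the first comparison, mdx/Ripk3mKO with mdx, asks how the Ripk3 change bears on the dystrophic condition. Under the series text that change lay in the cells kept in the transwell, not in the sequenced cells. Of the 9 genes, 6 lay below 0 and 3 above, and none passed an adjusted p of 0.05 in limma, on log2(scaled count + 1). The background was 0.206% of 14077 tested genes passing that threshold. At an unadjusted p under 0.05 there was 1 of the 9, Nid2, where 11.6% of all genes passed. Groups did not overlap for 5 of the 9, with Lamb2 and Hspg2 higher and Lama2, Nid1 and Nid2 lower in mdx/Ripk3mKO, while 41.3% of all genes showed no overlap. The median log2 fold change was -0.08 over the 9 genes and 0.00 in size over all tested genes, and the median absolute change was 0.083 and 0.097. In bulk RNA, fewer cells of a type and less RNA per cell cannot be told apart.

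Lama2 (ENSMUSG00000019899), chr10:26981285-27616843 on the minus strand of mm10, had the largest difference of the 9. It had 2723 and 2167 scaled counts in mdx/Ripk3mKO, 2780 and 3261 in mdx and 2488 and 2668 in wt. Both mdx libraries were above both mdx/Ripk3mKO libraries, though mdx/Ripk3mKO library 1 came close to mdx library 1, and both were above the wt libraries too. The log2 fold change of mdx/Ripk3mKO over mdx was -0.31 ± 0.13 (SE, 95% interval -0.63 to 0.01, limma adjusted p = 0.441). Without mdx/Ripk3mKO library 1, the one with high Xist, it was -0.47 with an adjusted p of 0.015. Without mdx/Ripk3mKO library 2 it was -0.14 with an adjusted p of 0.665, so the value turned on which of the 2 libraries was kept.

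Nid2 (ENSMUSG00000021806), chr14:19751265-19811787 on the plus strand, encodes the second nidogen. It had 1807 and 1747 scaled counts in mdx/Ripk3mKO, 2177 and 1976 in mdx and 2051 and 1784 in wt. The mdx/Ripk3mKO libraries were both below the mdx libraries, while wt spanned the gap. The log2 fold change over mdx was -0.22 ± 0.07 (SE, interval -0.38 to -0.07, unadjusted p = 0.008, limma adjusted p = 0.251). Leaving out 1 library at a time moved it between -0.29 and -0.15. Nid2 overlaps 2700060E02Rik on the other strand, and the sources do not state whether reads were counted by strand, so the 2 genes may share reads.

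Nid1 (ENSMUSG00000005397), chr13:13437551-13512269 on the plus strand, encodes the first nidogen, which binds the Lamc1 chain. Its scaled counts were 2043 and 2041 in mdx/Ripk3mKO, 2069 and 2438 in mdx and 2040 and 2223 in wt. The lower mdx library was just above mdx/Ripk3mKO, and the log2 fold change of -0.14 ± 0.07 had a limma adjusted p of 0.503. Agrn (ENSMUSG00000041936), chr4:156165290-156197488 on the minus strand, had 608 and 651 in mdx/Ripk3mKO, 650 and 747 in mdx and 630 and 648 in wt. Those mdx/Ripk3mKO and mdx values overlapped by 1 scaled count, at -0.15 ± 0.08 with a limma adjusted p of 0.520. Leaving out 1 library at a time moved Nid1 between -0.26 and -0.019 and Agrn between -0.25 and -0.047.

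Hspg2 (ENSMUSG00000028763), chr4:137468769-137570630 on the plus strand, was among the most even. It had 17317 and 18064 scaled counts in mdx/Ripk3mKO, 17214 and 16982 in mdx and 17784 and 17309 in wt. The mdx/Ripk3mKO libraries were above the mdx libraries by a narrow margin and overlapped wt. Its 95% interval against mdx ran from a difference of -3.53% to one of 10.9%, and against wt from -5.99% to 8.09%. The interval for mdx against wt was -9.12% to 4.49%, so changes of Hspg2 beyond about these sizes lie outside the intervals.

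Lamb2 (ENSMUSG00000052911), chr9:108479857-108490530 on the plus strand, had 1485 and 1459 scaled counts in mdx/Ripk3mKO, 1410 and 1370 in mdx and 1481 and 1490 in wt. Its mdx libraries were the lowest pair, at a log2 fold change of 0.08 ± 0.06 for mdx/Ripk3mKO over mdx. Lamb1 (ENSMUSG00000002900), chr12:31265234-31329644 on the plus strand, had 3367 and 3489 in mdx/Ripk3mKO, 3184 and 3608 in mdx and 3125 and 3566 in wt. Both mdx/Ripk3mKO values fell inside the ranges of the other groups, and the log2 fold change over mdx was 0.02 ± 0.07. Lamc1 (ENSMUSG00000026478), chr1:153218922-153332786 on the minus strand, had 4721 and 4377 in mdx/Ripk3mKO, 4626 and 4948 in mdx and 4524 and 4677 in wt. Every pair of its groups overlapped, with -0.07 ± 0.06 over mdx.

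Lama5 (ENSMUSG00000015647), chr2:180176373-180225859 on the minus strand, had 1677 and 2138 scaled counts in mdx/Ripk3mKO, 1886 and 2120 in mdx and 2003 and 2098 in wt. The 2 mdx/Ripk3mKO libraries were the lowest and the highest of all 6. Over mdx the log2 fold change was -0.08 ± 0.11, and leaving out mdx/Ripk3mKO library 1 turned it to 0.10, while leaving out library 2 gave -0.25. In these 2 libraries the alpha chains went opposite ways, library 1 being the higher for Lama2 and the lower for Lama5.

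**Figure D3:**
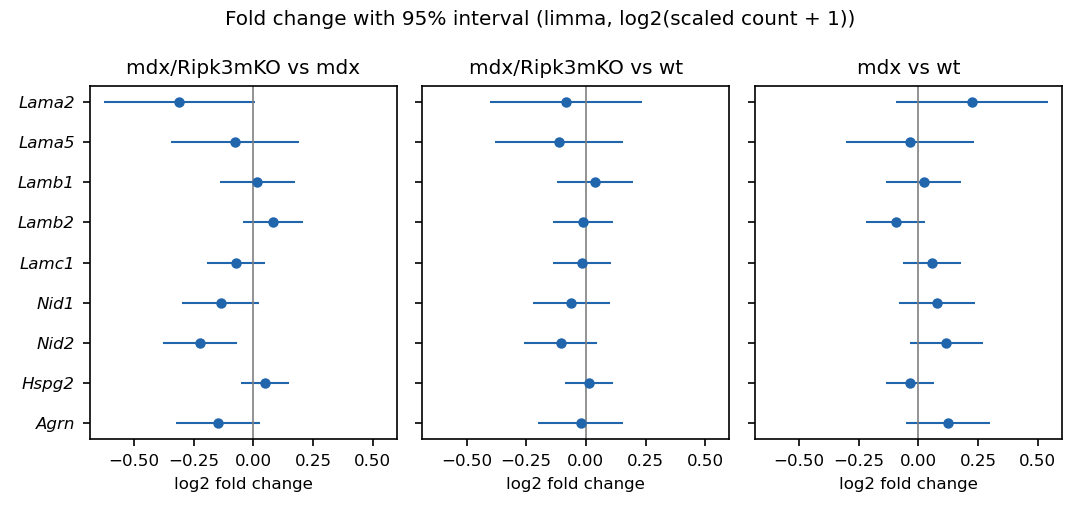
Log2 fold change (points) with its 95% interval (bars) for each gene in the 3 comparisons. Every interval crosses 0 except that of Nid2 in mdx/Ripk3mKO against mdx, which runs from -0.38 to -0.07.

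Against wt, the mdx/Ripk3mKO libraries differed least. No gene of the 9 passed the adjusted threshold in limma, where 0% of all genes did, and 0 of the 9 had an unadjusted p under 0.05, where 3.32% of all genes did. Of the 9 genes 0 had groups without overlap, against 29.4% of all genes. The log2 fold changes ran from -0.11 for Lama5 to 0.04 for Lamb1, with a median of -0.02 beside 0.00 over all genes. Lama2 stood at -0.08 ± 0.13 and Nid2 at -0.11 ± 0.07.

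By its labels, the comparison of mdx with wt asks what the dystrophic condition changes. Under the series text that condition was one of the cells kept in the transwell. Of the 9 genes 6 lay above 0 and 3 below, and 0 passed the adjusted threshold in limma, where 0.0071% of all genes did. At an unadjusted p under 0.05, 0 of the 9 passed, against 6.46% of all genes. Groups did not overlap for 4 of 9, Lama2 and Agrn being higher and Lamb2 and Hspg2 lower in mdx, while 35.9% of all genes showed no overlap. The log2 fold change was 0.22 ± 0.13 for Lama2 (limma adjusted p = 0.832), 0.12 ± 0.08 for Agrn, 0.12 ± 0.07 for Nid2 and -0.10 ± 0.06 for Lamb2. On leaving out 1 library at a time these ran from 0.11 to 0.34 for Lama2, 0.025 to 0.23 for Agrn, 0.016 to 0.22 for Nid2 and -0.12 to -0.075 for Lamb2. The median of the 9 genes was 0.06, beside 0.00 in size over all genes. This comparison and that of mdx/Ripk3mKO with mdx share the mdx libraries, so their opposite signs are not separate observations.

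Fold changes went with the base composition of the transcripts. Across all genes this held in every comparison, and across the 9 genes mainly in those with the mdx libraries. Transcript GC content ran from 47.7% in Lama2 to 60.9% in Hspg2, beside a median of 49.5% over all tested genes. Across the 9 genes, the log2 fold change of mdx/Ripk3mKO over mdx had a Pearson correlation with GC content of 0.66 and a Spearman correlation of 0.53, and for mdx over wt these were -0.78 and -0.67. For mdx/Ripk3mKO over wt they were 0.15 and 0.10. Across all genes the Spearman correlation was 0.30 for mdx/Ripk3mKO over mdx, -0.17 for mdx over wt and 0.21 for mdx/Ripk3mKO over wt. These correlations are across genes of the same 6 libraries, which are not independent replicates. After a correction for GC content and length fitted in each library, the log2 fold change of mdx/Ripk3mKO over mdx was -0.24 for Lama2, -0.24 for Nid2 and 0.03 for Lamb2.

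**Figure D4:**
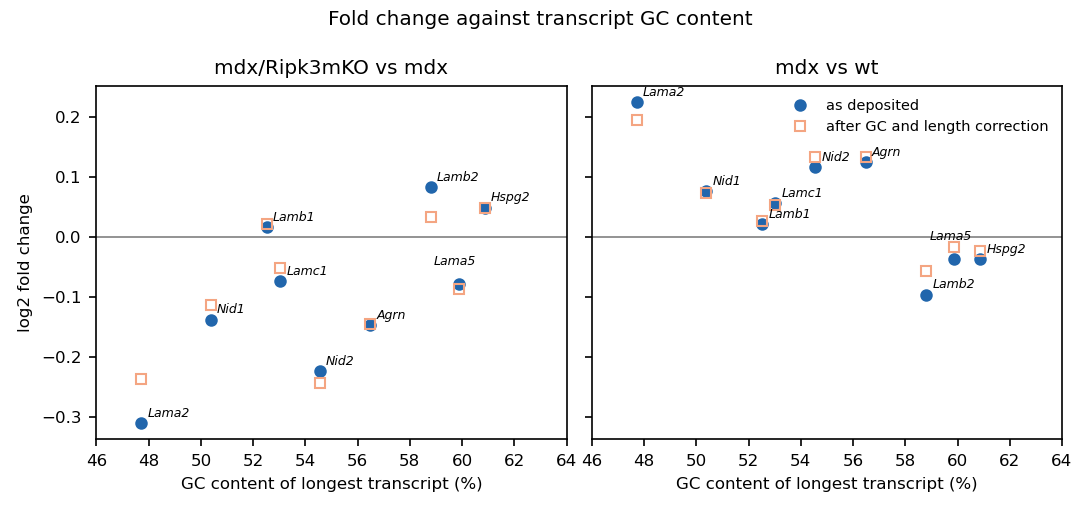
Log2 fold change of each gene against the GC content of its longest transcript, as deposited (filled circles) and after the GC and length correction (open squares). Lama2, at 47.7% GC, lies at -0.24 after the correction and -0.31 before it in the left panel, and the other genes move less there.

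Genes that work with these proteins were listed by role. Among 13 receptors, 2 passed the adjusted threshold and were higher in mdx/Ripk3mKO than in mdx, and 0 were lower, where 0.206% of all genes passed. At an unadjusted p under 0.05 there were 6 of 13, against 11.6% of all genes. Sdc3, a cell surface heparan sulphate proteoglycan of satellite cells, had 5997 and 6609 scaled counts in mdx/Ripk3mKO, 4787 and 5073 in mdx and 6054 and 6109 in wt. Its log2 fold change over mdx was 0.35 ± 0.06 (limma adjusted p = 0.029). Itgb4, a laminin-binding integrin chain, had 1822 and 2181 in mdx/Ripk3mKO, 1388 and 1501 in mdx and 1876 and 1748 in wt, at 0.47 ± 0.08 (limma adjusted p = 0.048). For both genes the mdx libraries were the lowest pair and mdx/Ripk3mKO overlapped wt. Of the 6 fits that each leave out 1 library, the call of either gene held in the one without mdx/Ripk3mKO library 1 alone. After the GC and length correction the log2 fold changes were 0.30 and 0.41, with adjusted p of 0.079 for Sdc3 and 0.075 for Itgb4. Both calls were also lost without trend and robust fitting (0.463 and 0.468) and with the 2 groups alone (0.202 and 0.204).

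The 3 most abundant receptor genes did not pass the threshold. Itgb1 and Itga7, which together form the main laminin integrin of muscle cells, had log2 fold changes of -0.07 ± 0.05 and 0.11 ± 0.05 in mdx/Ripk3mKO over mdx, and Dag1, which encodes dystroglycan, had -0.08 ± 0.06. None of the 12 tested genes of dystroglycan glycosylation, the sugar chain that laminin and agrin bind, passed the threshold in any comparison with limma. At an unadjusted p under 0.05, 2 of the 12 passed, both for mdx/Ripk3mKO against wt, where 3.32% of all genes did. Among the 12, Pomgnt1 and B3galnt2 had log2 fold changes over mdx of 0.13 and 0.01.

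Of 8 basement membrane collagen genes 5 were tested, and 0 passed in any comparison with limma. At an unadjusted p under 0.05, 2 passed for mdx against wt, where 6.46% of all genes did. For mdx/Ripk3mKO, 0 passed against mdx and 0 against wt, beside 11.6% and 3.32% of all genes. All 5 lay below 0 in mdx/Ripk3mKO over mdx, with a median log2 fold change of -0.20. Col4a1 and Col4a2, the chains of the common type IV collagen network that nidogens join to laminin, had -0.17 ± 0.08 and -0.13 ± 0.08. Col18a1, a heparan sulphate collagen, had -0.44 ± 0.27 and Col4a5 -0.20 ± 0.26. Summed over the list, scaled counts were 12088 and 13351 in mdx/Ripk3mKO, 14542 and 14560 in mdx and 12948 and 11846 in wt, with both mdx libraries the highest. Of the fibroblast markers, 6 of 10 listed genes were in the table. They summed to 4934 and 4451 in mdx/Ripk3mKO, 4966 and 5924 in mdx and 4609 and 5102 in wt. Most of each sum came from 1 gene, Col3a1. It had 4237 and 4205 in mdx/Ripk3mKO, 4537 and 5326 in mdx and 4280 and 4713 in wt. Markers of differentiating muscle (8 of 8) summed to 323902 and 250259 in mdx/Ripk3mKO, 345661 and 301013 in mdx and 286218 and 275553 in wt. Lama2 had its lowest value in the library with the lowest fibroblast and differentiating muscle sums, mdx/Ripk3mKO library 2, and its highest in the one with the highest fibroblast sum, mdx library 2. The part of either in these results was not tested.

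Other laminin chains were scarcer than Lama5. Lamb3, a beta chain of epithelial laminins, averaged 73.1 scaled counts per kilobase and Lamc3, a further gamma chain, 2.81. Of these 2 genes 0 passed in any comparison with limma, and 0 had an unadjusted p under 0.05. For mdx/Ripk3mKO over mdx, Lamb3 had a log2 fold change of 0.05 ± 0.10. Among 18 tested genes of assembly and turnover 0 passed in any comparison with limma, while 6 had an unadjusted p under 0.05 for mdx/Ripk3mKO against mdx, where 11.6% of all genes did. For mdx/Ripk3mKO against wt there were 2, beside 3.32% of all genes, and for mdx against wt 1, beside 6.46%. The 4 most abundant were Sparc, a collagen chaperone outside the cell, at -0.04 ± 0.05, the metalloproteinase inhibitor Timp2 at 0.17 ± 0.07, and the cathepsins Ctsb and Ctsl at 0.19 ± 0.06 and 0.10 ± 0.05, all for mdx/Ripk3mKO over mdx.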

How the data were processed

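Gene expression was measured by RNA-seq in 6 libraries, 2 per labelled group. The values deposited by the authors were read as a score: counts per gene, scaled to a common library size and then rounded, which rests on the values, since size factors of the table differed by at most 0.00039 and whole numbers were skipped or doubled at regular steps. Per the submitters' processing notes, Trimmomatic 0.36, STAR 2.6.1d, featureCounts 1.6.3, DESeq2 1.18.1 and mm10 were used, without the role of each. Depth is hidden by the scaling. The divisors imply that 3 counts equal 2.49 to 3.45 scaled counts, which covers counting error only. Both mdx columns carry one header, so their numbers are names only.

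limma 3.58.1 (R 4.3.3, statmod 1.5.0, trend and robust) was fitted to log2(scaled count + 1) over all 6 libraries with group as the only term and 3 residual degrees of freedom. Such fold changes understate those of low genes. The test covered the 14077 genes that reached 10 in 2 or more libraries and left out 438. The 9 genes followed here are among those tested. P-values were adjusted over all of them by Benjamini-Hochberg at 0.05. No count model was used, since the values are not raw counts. The fit was tested on simulated data. Errors are moderated standard errors. Lengths and GC content came from GENCODE M21 and promoter windows from RefSeq (GRCm38.p6). Gene coordinates are those of the deposited table.

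The genes and lists were chosen with earlier results of these data known. From each list, up to 4 detected genes with the highest mean and any gene past the threshold are named, except that some results are not reported here. The alternatives were other pseudocounts, normalizations, filters and error models, a GC and length correction, the groups alone, a replicate block and leaving out each library.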

Additional observations from a re-analysis of the deposited data

How the results depend on the processing

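Calls over all genes depended on the settings. For mdx/Ripk3mKO against mdx, 29 genes passed, but 14 with the GC and length correction, 1 without trend and robust fitting, 2 with the 2 groups alone and 1 to 278 when a library was left out. The highest, 278, was without mdx/Ripk3mKO library 1. For mdx/Ripk3mKO against wt the range on leaving out a library was 0 to 20, and for mdx against wt it was 0 to 103, with 103 also for the 2 groups alone.

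Among the 9 genes, 0 to 1 passed for mdx/Ripk3mKO against mdx when a library was left out, the 1 being Lama2 without mdx/Ripk3mKO library 1. Their median log2 fold change ranged from -0.15 to -0.019 in that comparison and from -0.027 to 0.11 for mdx against wt. Of 162 values that leave out a library, 17 changed sign, and of 171 under other alternatives 1 did: Lamc1 in mdx/Ripk3mKO over wt, at 0.0015 after the GC and length correction. Many of these values could not change, since leaving out a library of the group not compared returns the same fold change. So do the fits without the filter, without trend and robust fitting, with the 2 groups alone and with the replicate block. The counts are therefore no measure of how steady the signs were. On leaving out a library, log2 fold changes of mdx/Ripk3mKO over wt ranged from -0.071 to 0.027 for Agrn, -0.019 to 0.042 for Hspg2, -0.25 to 0.080 for Lama2, -0.29 to 0.061 for Lama5, -0.057 to 0.13 for Lamb1, -0.072 to 0.037 for Lamc1 and -0.12 to 0.0014 for Nid1. Over mdx they were -0.25 to 0.097 for Lama5 and -0.074 to 0.11 for Lamb1. For mdx over wt they were -0.12 to 0.048 for Lama5, -0.073 to 0.12 for Lamb1 and -0.042 to 0.20 for Nid1. The mean share of Lama2 was 48.4% and that of Lamb1 58.9% with the union of exons as length, against 61.4% and 69.4%, and that of Nid1 was 52.7% without division by length, against 47.2%.

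Library numbers were given for mdx/Ripk3mKO and wt only, and same-numbered libraries did not deviate together (correlation -0.011). With the replicate block the median for mdx/Ripk3mKO over wt was -0.02, which a balanced block cannot change. With it 0 genes passed, as without it, but that fit kept 1 residual degree of freedom and decides little. The block could not be fitted for the comparisons with mdx, whose numbers are names only. With 2 libraries a group and depth hidden by scaling, no difference among the 9 genes passed after adjustment over 14077 genes in the fit over all 6 libraries. The cause of these shifts was not tested.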

Other observations

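Chosen after their values were seen, 2 matrix genes are given without a call for mdx/Ripk3mKO against mdx. Both belong to the 18 tested genes of assembly and turnover above, and to the 6 of these with an unadjusted limma p under 0.05. Mmp14, a membrane-bound collagenase, had 686 and 623 scaled counts in mdx/Ripk3mKO, 825 and 897 in mdx and 655 and 751 in wt. Its log2 fold change was -0.40 ± 0.08, with a limma adjusted p of 0.081. Pxdn, the peroxidase that crosslinks type IV collagen, had 1878 and 1988 in mdx/Ripk3mKO, 2116 and 2313 in mdx and 2050 and 2039 in wt, at -0.20 ± 0.06 (limma adjusted p = 0.236). Neither gene's mdx/Ripk3mKO libraries overlapped its mdx libraries, while 41.3% of all genes showed no overlap in this comparison. Since the 2 genes were chosen after their values were seen, this is no separate result. For Mmp14 the wt values overlapped the mdx/Ripk3mKO range, and for Pxdn they lay between the other groups.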
